A study of Sus scrofa with 4 samples.

Results

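A set of 40 genes that mark epithelial cells, the mesothelial covering of the ovary and the secretory cells of the oviduct were followed in pig ovaries in diestrus. They were chosen by name, as rows of the deposited gene table whose symbol equals one of the 40 names. Of these, 32 were found, on 34 of the 22309 rows, since DMBT1 has 3 rows of its own. The 8 names with no row of that symbol were KRT17, KRT19, MSLN, UPK3B, MUC16, PAX8, MUC1 and LCN2.

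Poly(A)-enriched RNA of whole ovary was sequenced in 4 samples, 2 from wild-type (WT) sows and 2 from sows of the genotype leptin overexpression. The leptin overexpression line goes back to a re-cloned pig named C013. Its male clones were bred to Duroc/Landrace/Yorkshire (DLY) sows, and carriers were picked from the second generation of offspring. All 4 samples are labelled diestrus, the luteal phase of the cycle. The sources used here do not give the age of the sows, the breeding of the WT sows, the promoter that drives the leptin transgene, or whether each sample is a separate animal. The p-values therefore cover the spread among these 4 samples alone, and that spread may be technical.

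Epithelial cells line surfaces and ducts. They are held together by cadherins at adherens junctions and by claudins at tight junctions, and they are stiffened inside by keratin filaments, each built from a type I and a type II keratin. Most of the ovary is not epithelium in this sense: granulosa, luteal, theca and stromal cells fill it, and a single layer of modified mesothelium covers it. The neighbouring oviduct is lined by ciliated and secretory epithelial cells, and the secretory cells make oviductal glycoprotein 1 (OVGP1), which is released into the oviduct lumen around fertilisation.

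Levels are in CPM, the count of a gene relative to the total of its library, scaled by TMM factors, and each set of 4 values is given in the order WT replicates 1 and 2, then leptin overexpression replicates 1 and 2. Every log2 fold change is the leptin overexpression level relative to WT, so a negative value is lower in leptin overexpression; it comes with its standard error (SE) from edgeR's quasi-likelihood test with 2 samples per group; adjusted p-values are by the Benjamini-Hochberg method over all genes tested, with a threshold of 0.05. Total counts were 16493113 to 16797511 per library, and a count of 0 allows up to 3 counts, which is 0.136, 0.179, 0.196 and 0.224 CPM in the 4 libraries; this limit and the intervals below cover counting error only. The TMM factors of the 4 libraries were 1.34, 0.998, 0.925 and 0.809, higher in WT, and their part in the results was not tested beyond the other scalings that were tried. Across genes, Pearson's r was 0.917 between the WT libraries, 0.936 between the leptin overexpression libraries, and 0.941 between WT replicate 2 and leptin overexpression replicate 1, so this WT library lay closer to one of the other group. Counts of LEP, the leptin gene, were 0, 3, 55 and 124. Ovarian cell types were present in every library: the summed CPM of the granulosa markers was 1570.5 to 1708 and that of the luteal markers 19823 to 45028.

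Most of the epithelial and oviduct secretory genes had lower values in leptin overexpression than in WT. Among the mesothelial genes, the groups overlapped for both that were tested by symbol, UPK1B and LHX9. They did not overlap for CALB2, untested with counts of 1, 9, 0 and 0. Nor did they for MSLN, on a row without a symbol, with counts of 18, 15, 0 and 1. Summed over the 34 rows, the level was 876 and 468 CPM in WT and 85.9 and 162 CPM in leptin overexpression. No member passed the threshold by edgeR (0 of 30 tested rows), where 4 of 13937 genes passed in all, all of them higher in leptin overexpression; the background of lower calls was 0.0% of genes and that of higher calls 0.0287%. At an unadjusted p under 0.05, edgeR had 20 of the 30 rows lower and 0 higher, against a background of 5.32% lower and 4.04% higher. DESeq2 called 13 of the 34 member rows lower and 0 higher, against a background of 1.36% lower and 0.658% higher. One gene, DMBT1, is on more than 1 of these rows, and without the DMBT1 rows 11 of 31 were called lower. With each library left out in turn, edgeR called 9 member rows lower without WT replicate 1, against a background of 0.667% of genes, and 16 without WT replicate 2, against 2.86%. It called 0 without either leptin overexpression replicate, where 0.0% of genes were called lower.

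The groups did not overlap for 22 of the 30 tested rows, with leptin overexpression lower in all 22, where the background was 22.9% of genes lower and 22.2% higher. The log2 fold change was negative for 28 of the 30, against a background of 50.7%, and the exceptions were EPCAM and PROM1. The median was -2.92 over the 30 rows, -2.68 without the DMBT1 rows and -0.01 over all genes tested. A row can pass the filter on low counts through 1 group alone, so these counts and medians describe the rows and are no test of the set. The rows that did not pass were KRT5, CLDN3, CALB2 and 1 of the DMBT1 rows. Over all 34 rows, 25 were lower in leptin overexpression without overlap, where the share over all rows of the table was 17.9%. In RNA of whole tissue, fewer epithelial cells and less RNA per epithelial cell cannot be told apart.

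**Figure D1:**
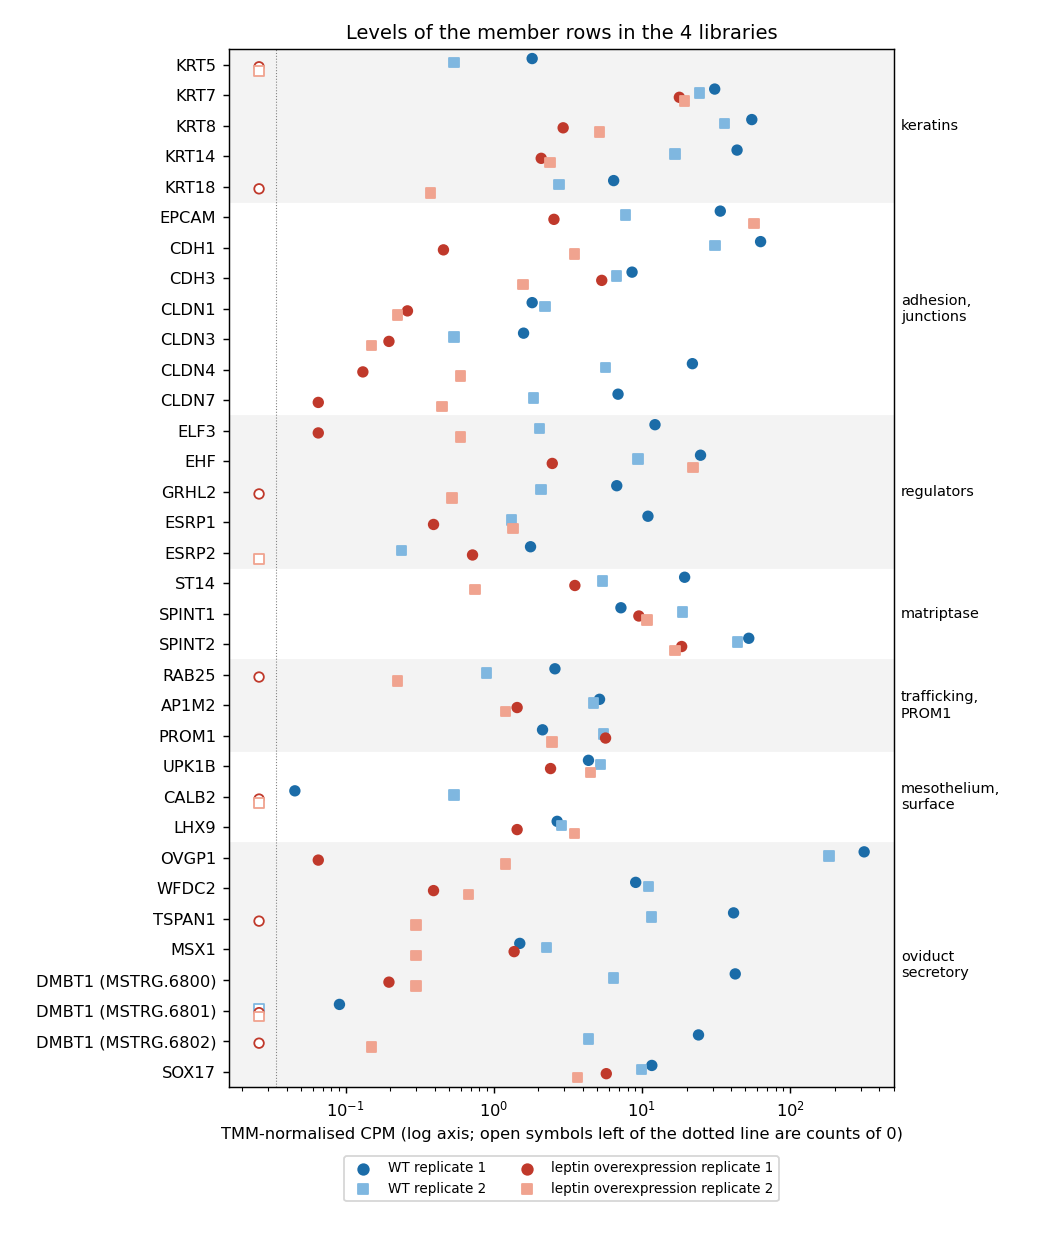
Level of each of the 34 member rows in the 4 libraries, in TMM-normalised CPM on a log axis, grouped by role; blue symbols are WT and red symbols leptin overexpression, and open symbols left of the dotted line are counts of 0. Red symbols lie left of both blue ones for 25 rows, among them all oviduct secretory rows but the lowest DMBT1 row, and they are mixed with the blue ones for EPCAM, EHF, ESRP1, ESRP2, SPINT1, PROM1, UPK1B and LHX9.

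Among the 4 tested keratins, KRT8 had the lowest edgeR p-value and KRT7 the smallest difference. KRT8 (ENSSSCG00000000252), the type II keratin of simple epithelia, stood at 55.2, 36.1, 2.94 and 5.15 CPM. Both WT libraries were far above both leptin overexpression libraries, with a log2 fold change of -3.50 (SE 0.48; edgeR adjusted p = 0.0921; DESeq2 adjusted p = 2.70e-08). Its usual partner KRT18 (ENSSSCG00000000253), a type I keratin, stood at 6.44, 2.74, 0 and 0.374 CPM, from counts of 142, 46, 0 and 5, with a log2 fold change of -4.62 (SE 1.21; edgeR adjusted p = 0.266; DESeq2 adjusted p = 0.00715). Both partner genes had the same order of libraries, WT replicate 1, WT replicate 2, leptin overexpression replicate 2, leptin overexpression replicate 1. KRT7, the type II keratin of ducts and glands, differed far less, at 31.0, 24.4, 17.9 and 19.3 CPM, although its groups did not overlap; the log2 fold change was -0.57 (SE 0.38; edgeR adjusted p = 0.621).

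The member rows named for keratins of stratified epithelia were also lower in leptin overexpression, while KRT10, outside the members, overlapped between the groups. The row with the symbol KRT14, a basal-cell type I keratin, stood at 43.9, 16.7, 2.09 and 2.39 CPM, a log2 fold change of -3.76 (SE 0.58; edgeR adjusted p = 0.134; DESeq2 adjusted p = 4.26e-07). The row with the symbol KRT5, the type II keratin of basal cells, had counts of 40, 9, 0 and 0, too few to pass the filter; WT was at least 12.1-fold higher, taking 3 counts over the leptin overexpression group as the floor. The table describes these rows as a keratin 14-like gene and as keratin 6A, and reads of near-identical keratins can be split between copies, so which keratin each row measures is uncertain. Summed over the 5 keratin rows, the level was 138, 80.5, 22.9 and 27.3 CPM.

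Per transcript length, KRT8 exceeded KRT18 in every library. The deposited FPKM values, which are scaled to transcript length, were 36.4, 18.0, 1.65 and 2.18 for KRT8 and 6.02, 1.88, 0 and 0.21 for KRT18. KRT7 was at 25.6, 15.1, 10.2 and 9.57 FPKM. In WT, KRT8 was thus the highest of the keratins on this scale, and in leptin overexpression KRT7 was.

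Among the adhesion and junction genes, E-cadherin and the claudins were lower in leptin overexpression, and EPCAM was not. CDH1 (ENSSSCG00000025652), which encodes E-cadherin, the cadherin of epithelial adherens junctions, stood at 63.2, 31.1, 0.457 and 3.51 CPM. The groups were wide apart, with a log2 fold change of -4.58 (SE 0.89; edgeR adjusted p = 0.218; DESeq2 adjusted p = 1.17e-07). P-cadherin, encoded by CDH3, was at 8.57, 6.74, 5.35 and 1.57 CPM, a smaller difference of -1.14 on the log2 scale (SE 0.66) without overlap.

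Claudins form the barrier strands of tight junctions, and all 4 that were named here were found. CLDN4 (ENSSSCG00000007718) stood at 21.9, 5.67, 0.131 and 0.598 CPM, a log2 fold change of -5.25 (SE 0.95; edgeR adjusted p = 0.198; DESeq2 adjusted p = 1.83e-06). CLDN7 (ENSSSCG00000017934) stood at 6.90, 1.85, 0.0653 and 0.448 CPM, a log2 fold change of -4.09 (SE 1.11; edgeR adjusted p = 0.279; DESeq2 adjusted p = 0.0209). Each of them had its highest value in WT replicate 1. CLDN1 had similar values in the WT libraries, at 1.81, 2.21, 0.261 and 0.224 CPM, with a log2 fold change of -3.01 (SE 0.94; edgeR adjusted p = 0.365). CLDN3, with counts of 35, 9, 3 and 2, was not tested.

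EPCAM (ENSSSCG00000008429), an adhesion molecule found on most epithelial cells, did not follow the claudins. It stood at 33.8, 7.76, 2.55 and 57.1 CPM, so its highest value was in leptin overexpression replicate 2 and its lowest in replicate 1 of the same group. The groups overlapped, and the log2 fold change was 0.52 (SE 1.47; edgeR adjusted p = 0.917). Its sign rested on single libraries: it was -3.01 without leptin overexpression replicate 2, -0.23 without WT replicate 2 and 1.90 without WT replicate 1. In leptin overexpression replicate 2, the library with the highest EPCAM value, CDH1 was at 3.51, KRT8 at 5.15 and CLDN4 at 0.598 CPM, each below both WT libraries.

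The regulators of epithelial identity were divided. ELF3 (ENSSSCG00000010922), an epithelial ETS transcription factor, stood at 12.2, 2.03, 0.0653 and 0.598 CPM, a log2 fold change of -4.44 (SE 1.19; edgeR adjusted p = 0.279; DESeq2 adjusted p = 0.00361). GRHL2 (ENSSSCG00000006060), a grainyhead factor that maintains junction genes, stood at 6.76, 2.09, 0 and 0.523 CPM, a log2 fold change of -4.09 (SE 1.28; edgeR adjusted p = 0.366; DESeq2 adjusted p = 0.0331). For both factors, WT and leptin overexpression did not overlap. EHF, another epithelial ETS factor, stood instead at 24.9, 9.43, 2.48 and 22.04 CPM, with overlapping groups and a log2 fold change of -0.49 (SE 0.98; edgeR adjusted p = 0.872). The EHF value was 0.34 without WT replicate 1, 0.38 without leptin overexpression replicate 1, and -2.77 without leptin overexpression replicate 2.

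ESRP1 and ESRP2, the splicing factors that set epithelial isoforms, also overlapped between the groups. ESRP1 stood at 10.98, 1.31, 0.392 and 1.34 CPM, with its level in leptin overexpression replicate 2 just above that in WT replicate 2, and a log2 fold change of -2.83 (SE 1.08; edgeR adjusted p = 0.497). ESRP2 stood at 1.77, 0.239, 0.718 and 0 CPM, a log2 fold change of -1.45 (SE 1.46; edgeR adjusted p = 0.738), and without WT replicate 1 its value was 0.59. WT replicate 1 was the highest library for all 5 regulators, and their summed level was 56.6, 15.1, 3.66 and 24.5 CPM. The median log2 fold change of the 5 was -2.83, and -0.63 without WT replicate 1.

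Matriptase is a membrane protease of epithelial cells, encoded by ST14, and SPINT1 and SPINT2 encode its Kunitz-type inhibitors. ST14 stood at 19.4, 5.43, 3.53 and 0.747 CPM, without overlap, and had a log2 fold change of -2.53 (SE 0.86; edgeR adjusted p = 0.425). SPINT2 was the steadiest of the 3 within each group, at 52.6, 44.0, 18.5 and 16.7 CPM, a log2 fold change of -1.45 (SE 0.37; edgeR adjusted p = 0.257; DESeq2 adjusted p = 0.0555). SPINT1 stood at 7.21, 18.8, 9.53 and 10.8 CPM, so both leptin overexpression libraries lay between the WT libraries. Its log2 fold change was -0.35 (SE 0.53; edgeR adjusted p = 0.831), and 0.47 without WT replicate 2.

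Genes of epithelial membrane trafficking were low in every library. RAB25, an epithelial Rab of the recycling endosome, stood at 2.59, 0.895, 0 and 0.224 CPM, from 72 counts in WT and 3 in leptin overexpression. The ratio of the pooled, depth-corrected counts, WT over leptin overexpression, was 17.8, with a 95% counting interval of 5.84 to 88.1 (exact binomial), and the log2 fold change was -3.94 (SE 1.35; edgeR adjusted p = 0.42). AP1M2, the epithelial mu subunit of the AP-1 sorting complex, stood at 5.17, 4.71, 1.44 and 1.20 CPM, a log2 fold change of -1.90 (SE 0.66; edgeR adjusted p = 0.422). Neither gene overlapped between the groups. PROM1, which encodes the membrane-protrusion protein prominin, overlapped between the groups, at 2.13, 5.49, 5.68 and 2.47 CPM, with a log2 fold change of 0.10 (SE 0.72; edgeR adjusted p = 0.968). Its value was -0.44 without WT replicate 1 and -0.61 without leptin overexpression replicate 1.

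The genes of the mesothelium and ovarian surface were low in every library, and those tested by symbol overlapped between the groups. UPK1B, a uroplakin tetraspanin, stood at 4.36, 5.25, 2.42 and 4.48 CPM, a log2 fold change of -0.48 (SE 0.62; edgeR adjusted p = 0.799). LHX9, a LIM homeobox factor of the gonadal surface, stood at 2.68, 2.86, 1.44 and 3.51 CPM, a log2 fold change of -0.17 (SE 0.73; edgeR adjusted p = 0.947), and 0.36 without leptin overexpression replicate 1. The groups overlapped for both genes. CALB2, which encodes calretinin, was near the floor, with counts of 1, 9, 0 and 0; it was lower in leptin overexpression without overlap and was not tested. Summed over the 3 rows, the level was 7.08, 8.65, 3.85 and 7.99 CPM, and the other 3 names in this role, MSLN, UPK3B and MUC16, had no row of their symbol. MSLN was matched to a row without a symbol, given below, and was lower in leptin overexpression without overlap.

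The oviduct secretory genes had the lowest median log2 fold change among the roles. OVGP1 (ENSSSCG00000006791) stood at 316, 183, 0.0653 and 1.20 CPM. It was the highest of the members in both WT libraries by FPKM, at 204 and 88.0, and was listed at 0.01 and 0.48 FPKM in leptin overexpression. The ratio of pooled, depth-corrected counts, WT over leptin overexpression, was 437, with a 95% counting interval of 273 to 750. The log2 fold change was -8.66 (SE 1.03; edgeR adjusted p = 0.0919; DESeq2 adjusted p = 8.86e-06).

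WFDC2 (ENSSSCG00000033003), a secreted protein with WAP domains that is also known as HE4, stood at 9.07, 11.04, 0.392 and 0.672 CPM. It was among the 7 tested rows with a higher level in WT replicate 2 than in WT replicate 1, and its log2 fold change was -4.23 (SE 0.65; edgeR adjusted p = 0.134; DESeq2 adjusted p = 6.52e-06). TSPAN1 (ENSSSCG00000003908), a tetraspanin of secretory epithelia, stood at 41.6, 11.6, 0 and 0.299 CPM, a log2 fold change of -7.48 (SE 1.13; edgeR adjusted p = 0.174; DESeq2 adjusted p = 0.00714). The value for TSPAN1 rests on 4 counts in the leptin overexpression group, all in replicate 2.

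DMBT1, a secreted scavenger-receptor glycoprotein of mucosal surfaces, lies on 3 assembled gene models that carry its symbol. MSTRG.6800 stood at 42.6, 6.44, 0.196 and 0.299 CPM, a log2 fold change of -6.61 (SE 1.08; edgeR adjusted p = 0.198; DESeq2 adjusted p = 9.70e-10). MSTRG.6802 stood at 24.1, 4.36, 0 and 0.149 CPM, a log2 fold change of -7.52 (SE 1.29; edgeR adjusted p = 0.198; DESeq2 adjusted p = 1.93e-06). MSTRG.6801 had 2 counts in WT replicate 1 after rounding and 0 elsewhere. The models share a gene symbol, so they are not separate evidence, and the division of reads between them is not described in the sources used here.

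The developmental factors of the oviduct and its neighbours differed less. SOX17, a SOX factor of oviduct secretory cells that is also made in endothelium, stood at 11.7, 9.97, 5.75 and 3.66 CPM, a log2 fold change of -1.20 (SE 0.49; edgeR adjusted p = 0.518). The summed level of the 8 endothelial markers beside it was 726, 1322, 898 and 444 CPM, with overlapping groups. Of these markers, 7 had a negative log2 fold change, against a background of 50.7% of genes. PECAM1 and CDH5, 2 of the 8, were lower without overlap, where the background was 22.9%. The part of endothelium in the SOX17 values was not tested. MSX1, a homeobox factor of the Müllerian tract, stood at 1.50, 2.27, 1.37 and 0.299 CPM, a log2 fold change of -1.15 (SE 0.95; edgeR adjusted p = 0.683). All 7 tested oviduct secretory rows were lower in leptin overexpression without overlap, against a background of 22.9% of genes. Their median log2 fold change was -6.61, or -4.69 without WT replicate 1. Both medians are the value of the DMBT1 row MSTRG.6800, and MSTRG.6802 is also among these rows. The rows of the other genes ran from -8.66 for OVGP1 to -1.15 for MSX1, with WFDC2 in the middle at -4.23. The summed level over the 8 rows was 447, 228, 7.77 and 6.57 CPM, most of it OVGP1 in WT.

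**Figure D2:**
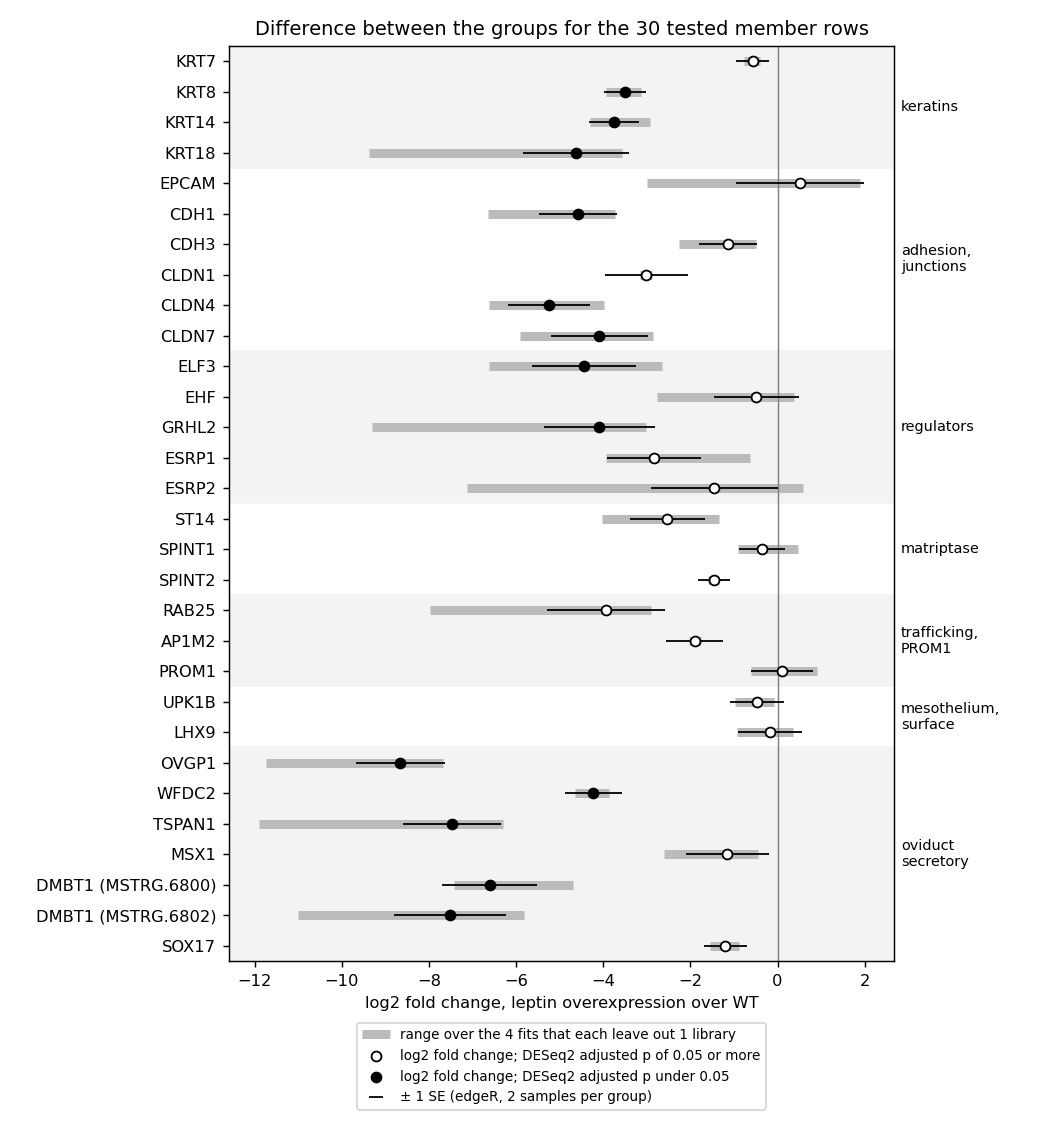
Log2 fold change of leptin overexpression over WT for the 30 tested member rows (points, filled where DESeq2's adjusted p was under 0.05), with 1 SE (thin lines, edgeR) and the range over the 4 fits that each leave out 1 library (grey bars). The oviduct secretory rows reach furthest left, to -8.66 for OVGP1, and the grey bars of EPCAM, EHF, ESRP2, SPINT1, PROM1 and LHX9 cross 0; grey bars that run beyond -9 rest on leptin overexpression counts of 0 or 1.

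Libraries of the same genotype differed from each other for many of these genes. WT replicate 1 was above WT replicate 2 for 23 of the 30 tested rows, against a background of 51.2% of genes, with a median difference of 1.11 on the log2 CPM scale. Among the 21 general epithelial rows, the keratin, junction, regulator, matriptase and trafficking genes, it was above for 18. Over the 30 rows, the widest of these gaps were those of ESRP1 (2.95), the DMBT1 rows (2.70 and 2.44), ELF3 (2.53) and ESRP2 (2.40). Leptin overexpression replicate 2 was above replicate 1 for 21 of the 30 rows, where replicate 1 was the higher one for 48.8% of all genes. Replicate 1 minus replicate 2 was -4.43 for EPCAM on the log2 CPM scale, the widest gap of the 30, followed by -3.09 for EHF and -2.84 for OVGP1. SPINT2, AP1M2, KRT7 and CLDN1 differed by less than 0.5 in size within both groups.

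**Figure D3:**
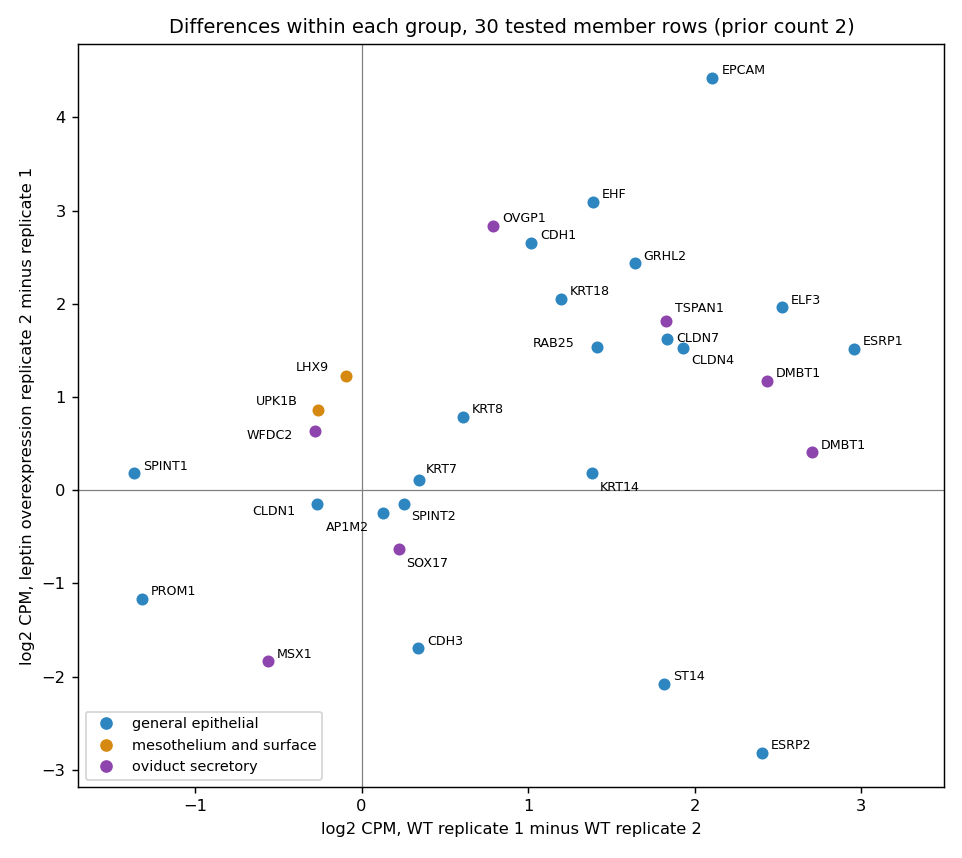
Difference between the libraries of each genotype for the 30 tested member rows, on the log2 CPM scale with a prior count of 2: WT replicate 1 minus replicate 2 on the x axis and leptin overexpression replicate 2 minus replicate 1 on the y axis. Most rows lie right of 0 (23 of 30) and above 0 (21 of 30), and EPCAM lies highest.

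Markers of other cell types were measured in the same libraries. For these and the lists below, the background over all genes was 50.7% with a negative log2 fold change. Without overlap, 22.9% were lower and 22.2% higher in leptin overexpression. DESeq2 called 1.36% lower and 0.658% higher, and 5.32% were lower at an unadjusted edgeR p under 0.05. Ciliated cells, the other epithelial cell of the oviduct lining, had markers that were also lower in leptin overexpression: 10 of 10 had a negative log2 fold change, 8 of 10 without overlap, and DESeq2 called 4 of them lower. Their summed level was 185 and 68.7 CPM in WT and 41.1 and 32.1 CPM in leptin overexpression. Most of the leptin overexpression sum was TPPP3, at 28.6 and 18.7 CPM, and CAPS, at 9.21 and 7.77 CPM. The log2 fold changes of the ciliated markers ran from -7.05 for TEKT1 to -0.21 for PIFO, with TPPP3 at -1.10 and CAPS at -0.71. FOXJ1, the master factor of motile cilia, stood at 38.2, 8.65, 0 and 0.448 CPM; SPAG6 and DNAH5 were also at 0 in leptin overexpression replicate 1, and TEKT1 was at 0 in replicate 2. The part of ciliated cells in the values of the epithelial genes was not tested, and the labels do not say whether oviduct tissue was attached to any sample.

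Oocyte markers, from another cell that makes E-cadherin and EPCAM, were summed at 144, 23.8, 21.7 and 24.8 CPM. All 6 tested oocyte markers had a negative log2 fold change, 2 of them without overlap. WT replicate 1 stood apart, the groups overlapped for the sum, and NOBOX and FIGLA were at 0 in WT replicate 2. The summed granulosa markers differed little, but single markers did not stay level. CYP19A1 stood at 9.21, 197, 197 and 161 CPM. INHA stood at 565, 300, 253 and 137 CPM, lower in leptin overexpression without overlap. SERPINE2 stood at 300, 594, 647 and 663 CPM, higher in leptin overexpression without overlap. Of the 9 granulosa markers, 5 had a negative and 4 a positive log2 fold change, and 7 overlapped between the groups. The luteal sum was lowest in WT replicate 1, at 19823 against 41082 to 45028 CPM in the other 3 libraries. Smooth muscle markers were lower in leptin overexpression too: their sum was 1136 and 1184 CPM in WT against 455 and 766 CPM, with 6 of 6 log2 fold changes negative, 5 of 6 without overlap, none at 0, and MYH11 and DES called by DESeq2. Markers of macrophages and lymphocytes were summed at 199 and 179 CPM in WT against 123 and 131 CPM, with 5 of 6 negative, 3 of 6 without overlap, none at 0 and 0 called by edgeR or DESeq2 (2 lower at an unadjusted edgeR p under 0.05). The part of oocytes, luteal cells, muscle and immune cells in the values of the members, between the groups or within them, was not tested.

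**Figure D4:**
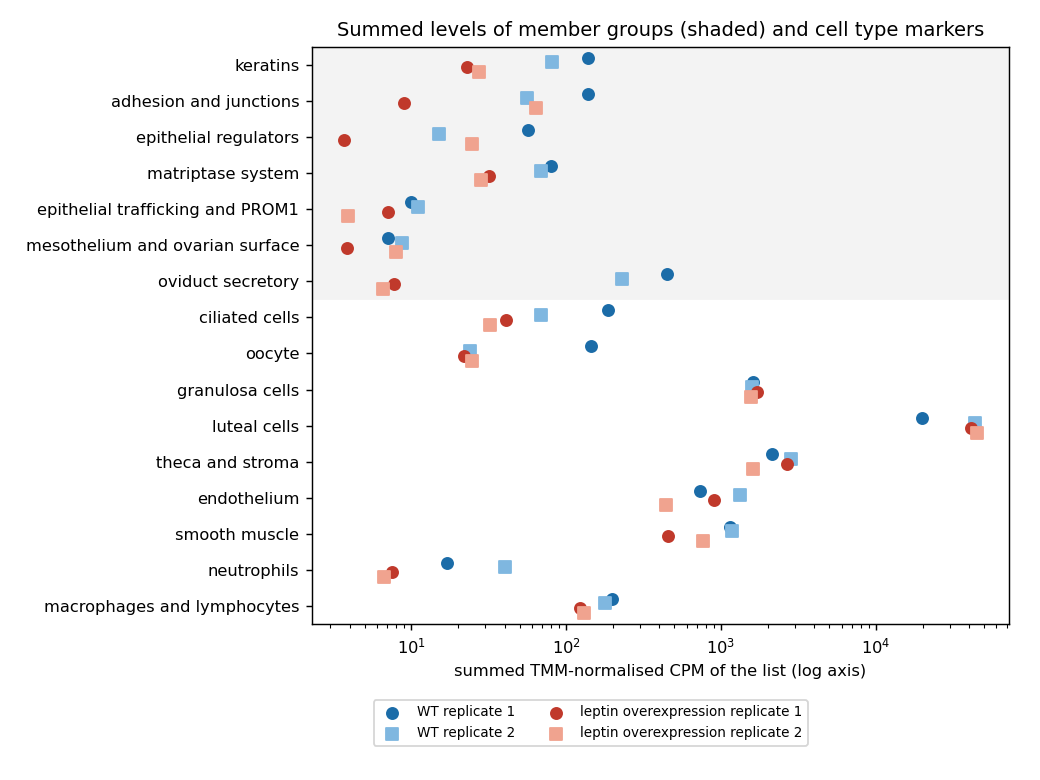
Summed TMM-normalised CPM, on a log axis, of the member roles (shaded) and of marker lists of other cell types in the 4 libraries. Oviduct secretory genes show the widest gap between the groups (447 and 228 against 7.77 and 6.57 CPM), ciliated cell markers a narrower one (185 and 68.7 against 41.1 and 32.1 CPM), and the granulosa sum almost none. TPPP3 and CAPS made up most of the ciliated sum in leptin overexpression.

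Other genes of the same structures differed in direction. Of 25 tested genes of junctions and polarity outside the members, 19 had a negative and 6 a positive log2 fold change. Their median was -0.26. Without overlap, 7 were lower in leptin overexpression and 1 higher, against backgrounds of 22.9% and 22.2% of genes. Among them, edgeR called 0, and DESeq2 called 2 lower and 1 higher. The 3 with the highest CPM, CTNNB1, CTNNA1 and F11R, which many cell types besides epithelium use, had log2 fold changes of 0.15, -0.15 and -0.13, and CTNNB1, the beta-catenin that binds E-cadherin, stood at 469, 386, 464 and 488 CPM. OCLN, the tight-junction protein occludin, was lower in leptin overexpression like the claudins, at 18.9, 8.59, 1.31 and 1.12 CPM (log2 fold change -3.49, SE 0.61; edgeR adjusted p = 0.197; DESeq2 adjusted p = 6.45e-05). PPL, which encodes the desmosomal protein periplakin, was the other lower call, at 6.94, 1.79, 0.392 and 0.149 CPM. PERP, a desmosome-associated membrane protein, was the higher call, at 42.9, 52.5, 140 and 289 CPM (log2 fold change 2.17, SE 0.46; edgeR adjusted p = 0.218; DESeq2 adjusted p = 0.000704).

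Of 17 tested epithelial genes of other kinds, edgeR called 0 and DESeq2 called 1 lower and 1 higher, with a median of -0.54. The higher one was KRT20, an intestinal-type keratin, with counts of 0, 0, 13 and 33. The 3 genes with the highest CPM were not lower in leptin overexpression. ERBB3, a receptor of the EGF receptor family, stood at 153, 133, 203 and 269 CPM, a log2 fold change of 0.72 (SE 0.40; edgeR adjusted p = 0.589). MAL2, a protein of epithelial transcytosis, stood at 19.3, 121, 132 and 200 CPM, a log2 fold change of 1.24 (SE 0.78; edgeR adjusted p = 0.613). The groups did not overlap for these genes, with leptin overexpression higher, and they did for the integrin gene ITGA6, at 81.6, 122, 130 and 99.2 CPM and a log2 fold change of 0.17.

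Of 6 tested oviduct secretory genes outside the members, edgeR called 0 and DESeq2 called 3 lower, with a median of -2.15. LTF, which encodes lactoferrin, stood at 33.2, 9.73, 0.196 and 1.20 CPM (log2 fold change -4.96, SE 0.94; edgeR adjusted p = 0.209; DESeq2 adjusted p = 4.44e-07). SLC34A2, a sodium-phosphate cotransporter, stood at 13.7, 11.8, 3.92 and 1.57 CPM, and the membrane mucin MUC4 at 12.6, 2.15, 0.326 and 0 CPM. The row matched to FOLR1, a folate receptor, is described as folate receptor 3 (gamma), so which receptor it measures is uncertain. It stood at 108, 149, 95.0 and 70.1 CPM, a log2 fold change of -0.64 (SE 0.39). Other mesothelial genes, 7 tested with 0 called by edgeR and 0 by DESeq2 (2 lower at an unadjusted edgeR p under 0.05), had a median of 0.19. ALDH1A2, a retinoic acid synthase of mesothelium, and PDPN, which encodes podoplanin, overlapped between the groups, at 136, 154, 139 and 191 CPM and at 15.2, 32.9, 28.9 and 29.0 CPM. RSPO1, an R-spondin of the ovarian surface, had counts of 31, 11, 0 and 0 (edgeR adjusted p = 0.279), lower in leptin overexpression without overlap. The Wilms tumour gene WT1, also made in granulosa cells, was also lower without overlap, at 69.3, 37.2, 24.8 and 20.8 CPM (log2 fold change -1.23, SE 0.42; edgeR adjusted p = 0.41). GPM6A, which encodes glycoprotein M6A, went the other way. It was higher in leptin overexpression without overlap, at a log2 fold change of 0.84 (SE 0.43, edgeR adjusted p = 0.57).

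Mesenchymal genes were evenly split: of 10 tested, 5 had a positive and 5 a negative log2 fold change, with a median of -0.0035, and edgeR and DESeq2 called 0, with 0 also at an unadjusted edgeR p under 0.05. VIM, the intermediate filament of mesenchymal cells, stood at 2319, 2015, 2437 and 2133 CPM, and FN1, which encodes fibronectin, at 292, 307, 346 and 132 CPM. CDH11, the cadherin of stromal cells, stood at 68.3, 85.0, 109 and 149 CPM, higher in leptin overexpression without overlap, at a log2 fold change of 0.75 (SE 0.38; edgeR adjusted p = 0.565).

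Of the 8 unmatched names, 3 have rows that the table leaves without a symbol, and these were identified by a gene name table or the row's description after their values had been seen. LCN2 (ENSSSCG00000005638), which encodes the siderophore-binding lipocalin of mucosal epithelia and neutrophils, stood at 35.6, 33.8, 5.42 and 3.36 CPM, a log2 fold change of -2.98 (SE 0.44; edgeR adjusted p = 0.129; DESeq2 adjusted p = 2.5e-06). The summed neutrophil markers beside it, 6 rows, were at 17.0 and 40.2 CPM in WT and 7.51 and 6.65 CPM in leptin overexpression, and 4 of 4 tested had a negative log2 fold change, 1 without overlap. That marker was CSF3R, at 14.4, 1.014, 0.522 and 0.0747 CPM (edgeR adjusted p = 0.366; DESeq2 adjusted p = 0.00475), and S100A12 stood at 1.36, 34.5, 5.88 and 4.78 CPM. ELANE was at 0 in all 4 libraries and MPO at 0.119 CPM or less. The part of neutrophils in the LCN2 values was not tested. MUC1, a membrane mucin, stood at 2.72, 3.70, 0.653 and 0 CPM, and MSLN, the surface protein mesothelin, had counts of 18, 15, 0 and 1, a log2 fold change of -4.34 (SE 1.44; edgeR adjusted p = 0.39). Leptin overexpression was lower without overlap for all 3. The median log2 fold change was -3.01 with these 3 rows added to the members.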

How the data were processed

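The deposited counts are expected counts, estimated per gene and unscaled, per the file headers, and were rounded to whole numbers for testing. The authors also deposited FPKM per gene, which corrects for transcript length and library depth, per the file headers. Named in the submitters' processing notes, without roles, are Bowtie2 2.2.8, DESeq2, edgeR 3.32.0, fastp 0.18.0, HISAT2, RSEM and StringTie 1.3.1. Neither the genome build nor the use of strand in counting is stated in these sources, so an antisense or overlapping gene cannot be told from its partner. Columns named as controls were taken as WT samples of the same number.

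Rows were filtered with edgeR's filterByExpr, which left 13937 of 22309 and removed 8372, scaled with TMM and tested with edgeR's quasi-likelihood test with robust dispersions and genotype as the design, which leaves 2 residual degrees of freedom. Versions were R 4.3.3, edgeR 4.0.16 and limma 3.58.1. An approximate SE was taken as the size of the log2 fold change over the square root of F. DESeq2 1.42.0 was an alternative and gave an adjusted p to 15803 genes; 1 member row had none. The scripts were tested on simulated counts.

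Alternatives were upper-quartile and RLE factors, testing without the filter, a filter of 1 CPM in 2 samples, limma-voom, limma-trend on log2(FPKM + 1) and log2(FPKM + 0.1), and a block for the replicate number. Each library was also left out, which leaves a group with 1 sample that is assumed to vary like the other group. Full statistics were given, within each role, for the 3 tested members with the highest mean CPM and any past 0.05 by edgeR or DESeq2; from every other list, the 3 tested genes with the highest mean CPM. Other named genes were chosen after their values were seen. Members and lists were chosen with earlier results of these data known. The list of theca and stroma, shown only in the plot of summed levels, had sums of 1616 to 2815 CPM. A further gene that DESeq2 called is not reported here.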

Additional observations from a re-analysis of the deposited data

How the results depend on the processing

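With 2 samples per group, the number of calls depended on the processing more than the values did. edgeR called 4 genes (0 lower and 4 higher), against 11 with upper-quartile factors (4 lower, 7 higher), 252 with no filter, 319 by DESeq2, 1 by limma-voom, 464 by limma-trend on log2(FPKM + 1) and 487 on log2(FPKM + 0.1), and 0 to 681 with each library left out. Of the members, 0 were called, against 2 (KRT8 and KRT14), 11, 13, 0, 17 and 16 under the same settings, and 0 to 16 with each library left out. With RLE factors or the 1 CPM filter, 4 genes and 0 members were called. The member median was -1.38 on log2(FPKM + 1), and -3.44 to -2.25 with each library left out. Scaling moved the median of all genes to -0.11 with upper-quartile factors, -0.30 on log2(FPKM + 1) and -0.40 on log2(FPKM + 0.1), and directions on those scales are relative to it.

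In the labels, same-numbered samples share only a number. Across genes, their deviations from the group means correlated at -0.0995, which cannot show whether they shared a batch. With the replicate number as a block, 23 genes and 1 member row, MSTRG.6800 of DMBT1 (edgeR adjusted p = 0.0491), were called, and EPCAM was at -0.35.

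These log2 fold changes changed sign. EPCAM was at -0.53 by limma-voom, -0.59 on log2(FPKM + 1), -0.81 on log2(FPKM + 0.1) and -3.01 to 1.90 with each library left out. On log2(FPKM + 1) and log2(FPKM + 0.1), PROM1 was at -0.15 and -0.34, CTNNB1 at -0.25 and -0.25, ITGA6 at -0.22 and -0.23, ALDH1A2 at -0.22 and -0.23, PDPN at -0.045 and -0.046, and VIM at -0.34 and -0.34; VIM was at -0.031 with upper-quartile factors. With each library left out, EHF ranged from -2.77 to 0.38, ESRP2 from -7.14 to 0.59, SPINT1 from -0.91 to 0.47, PROM1 from -0.61 to 0.92 and LHX9 from -0.93 to 0.36. Outside the members, CTNNB1 ranged from -0.0044 to 0.28, CTNNA1 from -0.35 to 0.056, F11R from -0.65 to 0.62, ITGA6 from -0.11 to 0.46, ALDH1A2 from -0.040 to 0.41, PDPN from -0.21 to 0.90, VIM from -0.045 to 0.19 and FN1 from -1.17 to 0.22. The cause of these changes was not tested. Fold changes of rows at or under 3 counts in a group, 14 of 34 in leptin overexpression replicate 1 and 8 in replicate 2, depend on the prior count and are no bounds.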

Other observations

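Several rows outside the lists or named in them without full values were looked at after the main values had been seen, and are given as values. MUC20, a membrane mucin, had counts of 30, 6, 0 and 0 in WT replicates 1 and 2 and leptin overexpression replicates 1 and 2, and UPK3BL2, a uroplakin-like gene, had 15, 17, 0 and 0. The gel-forming mucin MUC5B stood at 4.49, 2.98, 0.653 and 0.672 CPM and MUC3B at 9.66, 2.21, 1.04 and 0.299 CPM, so leptin overexpression was lower without overlap for both. UPK3A, a uroplakin, stood at 3.13, 2.03, 0.326 and 0.971 CPM. KRT10, a keratin of differentiated stratified epithelium, overlapped between the groups, at 7.53, 5.55, 6.66 and 12.5 CPM. KRT15, a basal-cell keratin, had counts of 17, 1, 0 and 0, and PAX6, an eye and islet paired-box factor, had 53, 2, 1 and 2, so nearly all reads of both were in WT replicate 1.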
